A study of Homo sapiens with 6 samples.

Results

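The subunits of the respiratory chain and of ATP synthase were followed at the RNA level in K562 cells, with the genes grouped by complex and by the genome that encodes them. Members were the protein-coding genes of the deposited table whose symbols belong to the NDUFS, NDUFV, NDUFA, NDUFB and NDUFC families (complex I, assembly factors left out), the 4 SDH subunit genes (complex II), CYC1 and the UQCR genes (complex III), the COX genes of classes 4 to 8 (complex IV), the ATP5 genes (complex V), and the 13 protein-coding genes of the mitochondrial genome. Of 19498 genes in the table, 100 met the rule, 87 in the nuclear and 13 in the mitochondrial genome. Complex I held 45 of them, complex II 4, complex III 11, complex IV 18 and complex V 22. NDUFA4 and NDUFA4L2 were counted with complex IV, where the NDUFA4 protein sits. Among the nuclear genes were 2 read-through genes (ATP5MF-PTCD1 and NDUFC2-KCTD14) and 2 near copies (ATP5MGL and UQCRHL), whose reads cannot be assigned with certainty.

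Complex I takes electrons from NADH and complex II, which is succinate dehydrogenase of the citric acid cycle, takes them from succinate. Both pass them to coenzyme Q, from which complex III hands them to cytochrome c and complex IV to oxygen. Complexes I, III and IV pump protons across the inner mitochondrial membrane, and complex V, the ATP synthase, uses their return to make ATP. All subunits of complex II are nuclear genes, while the other complexes mix nuclear subunits with a few made inside the mitochondrion, so that RNA from both genomes has to be supplied.

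K562 cells derive from a human chronic myeloid leukaemia, express the BCR::ABL1 kinase fusion and keep erythroid traits. The study compared 3 libraries of K562 cells with the genotype label ACK KO, called KO-labelled here, with 3 libraries of WT K562 cells. ACK is a non-receptor tyrosine kinase encoded by TNK2. Both groups share the same line, RPMI-based medium with 10% fetal bovine serum and glutamine, no stated drug treatment, poly(A)-selected stranded libraries from 500 ng of RNA, and an RNA integrity number of 10. The labels call the samples biological replicates, but do not say whether they came from separate cultures or whether the KO-labelled cells are a clone or a pool, so the genotype and any other difference between the 2 cell populations cannot be told apart, and p-values measure the spread between these libraries.

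Nuclear subunit genes are known for promoters with sites of NRF1, of the ETS factor GABP and of YY1. The RefSeq promoter table (GRCh38.p14, 250 bases before to 50 after the start) held 69 of the 87 nuclear members. The NRF1 letters (GCGCA, any base, GCGC), searched like the others on both strands, occurred in 16 of these (23.2%), against 12.8% of 10876 other protein-coding genes of the table and 5.78% of all 35116 promoters. The ETS letters CCGGAAG occurred in 21 (30.4%), against 21.5% and 10.3%. The YY1 letters AANATGGCG occurred in 17 (24.6%), against 7.66% and 3.19%. They hold ATGGCG, which can also be a start codon followed by an alanine codon. At least 1 of the 3 motifs occurred in 42 of the 69 genes (60.9%), against 36.1% and 17.1%. A gene was counted if any of its listed promoters held the letters. The shares of all 35116 promoters count each promoter singly, so they are not on the same footing as the shares of genes. Such matches are a description of the letters and not of binding. The promoters shown are those of 3 subunits of complex II and of NDUFS4, whose RNA differed most between the groups among their complexes; capitals mark the motif matches on either strand. SDHA (chr5:218070-218369, + strand) holds 4 NRF1 matches. SDHB (chr1:17053983-17054282, - strand) holds 1 ETS and 1 YY1 match, SDHD (chr11:112086623-112086922, + strand) 1 NRF1 and 1 ETS match, and NDUFS4 (chr5:53560389-53560688, + strand) 1 YY1 match.
SDHA: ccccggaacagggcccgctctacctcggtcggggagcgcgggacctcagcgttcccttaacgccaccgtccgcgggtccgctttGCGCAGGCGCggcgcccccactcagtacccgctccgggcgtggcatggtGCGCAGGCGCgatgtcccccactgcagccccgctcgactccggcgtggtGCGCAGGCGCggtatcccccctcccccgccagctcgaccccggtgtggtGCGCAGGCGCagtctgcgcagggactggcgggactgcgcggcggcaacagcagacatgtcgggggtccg
SDHB: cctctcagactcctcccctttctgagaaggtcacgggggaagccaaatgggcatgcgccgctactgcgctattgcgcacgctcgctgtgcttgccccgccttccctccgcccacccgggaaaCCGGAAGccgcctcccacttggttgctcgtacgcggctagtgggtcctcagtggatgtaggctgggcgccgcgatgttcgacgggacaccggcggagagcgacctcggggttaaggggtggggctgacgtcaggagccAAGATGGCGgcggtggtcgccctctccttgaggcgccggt
SDHD: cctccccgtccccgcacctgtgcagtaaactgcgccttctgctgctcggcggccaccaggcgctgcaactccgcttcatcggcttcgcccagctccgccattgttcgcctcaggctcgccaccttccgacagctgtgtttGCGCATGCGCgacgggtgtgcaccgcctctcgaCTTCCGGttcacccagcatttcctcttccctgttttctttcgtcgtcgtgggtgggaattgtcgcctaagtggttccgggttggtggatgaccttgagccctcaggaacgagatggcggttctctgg
NDUFS4: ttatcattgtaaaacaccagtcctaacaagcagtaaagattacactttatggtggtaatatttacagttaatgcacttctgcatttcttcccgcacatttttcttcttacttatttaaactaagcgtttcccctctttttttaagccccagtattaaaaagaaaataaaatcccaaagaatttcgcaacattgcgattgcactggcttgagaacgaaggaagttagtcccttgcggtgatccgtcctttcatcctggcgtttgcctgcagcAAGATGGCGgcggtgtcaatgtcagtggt

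Values are the authors' normalised counts, which sum to 43.5 M to 49.5 M per library in the KO-labelled group and 46.7 M to 53.3 M in WT. Read depth is unknown. Differences were fitted as log2(value + 1), KO-labelled minus WT, for the 16658 genes that reached 10 in 3 or more of the 6 libraries, and a call is an adjusted p under 0.05 over all of them (limma). Where a difference is followed by a pair of p-values, the first is the adjusted p without the replicate block and the other that with it. TNK2 had values of 741, 506 and 598 in KO-labelled and 830, 613 and 642 in WT libraries, with a log2 difference of -0.18 ± 0.21 (SE, adjusted p = 0.681; exact two-sided permutation p = 0.4, with 0.1 the smallest possible), so its RNA level does not check the label. All 14 K562 markers stood at 100 or more in every library, but their levels were not all alike in the 2 groups. HBE1 alone was called without the block (mean 12385 in KO-labelled and 1315 in WT, log2 3.20, adjusted p = 7.84e-04). With the block 2 of the 14 were lower and 3 higher (20% and 19.7% of all tested genes). Some markers of other cell types also stood at 100 or more in every library. These were 2 of 8 lymphocyte markers, 1 of 10 epithelial and fibroblast markers and 3 of 9 muscle markers. Only 6, 5 and 4 genes of these lists have a value here, and MYH7, CKM, KRT5 and MS4A1 are among those without one. The summed muscle markers ran from 3665 to 6172 in KO-labelled and from 16306 to 23082 in WT libraries. TTN was their main part in WT libraries and TNNT1 in KO-labelled libraries. The lymphocyte sums (1615 to 3619 and 842 to 3392) and the epithelial sums (4701 to 5294 and 4383 to 5188) overlapped. Within the epithelial and fibroblast list, COL1A1 was called higher in KO-labelled cells (mean 133, against 16.3 in WT, adjusted p = 0.0334).

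The libraries numbered replicate 1 stood apart from the other two in both groups. On the log2 scale, the median nuclear member in replicate 1 differed from the mean of replicates 2 and 3 by -0.46 in KO-labelled cells and by -0.60 in WT cells, where the median of all tested genes differed by 0.02 and 0.03. This was not particular to the subunits. Mitochondrial ribosomal protein genes differed by -0.58 and -0.75, and genes of mitochondrial DNA transcription and RNA handling by -0.64 and -0.79. The 4 ATP synthase assembly factors differed less, by -0.04 and -0.07. Because the replicate numbers paired the samples by the correlation of their deviations, a second fit used the replicate number as a block; its values stand beside the unblocked ones, with those of a further fit that left out both replicate 1 libraries. Blocked p-values rest on the assumption that equal numbers mark a shared source, which the labels do not state.

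Most nuclear-encoded subunit genes had lower values in the KO-labelled libraries, by small amounts. Of the 86 that could be tested, 74 had a log2 difference below 0 (51.6% of all tested genes did), and the median difference was -0.33, where the median over all tested genes was -0.02. KO-labelled lay below WT at all 3 replicate numbers for 67 of the 86, against 34% of all tested genes, and above WT at all 3 for 7, against 31.8%. The median difference was -0.25, -0.38 and -0.38 at replicate numbers 1, 2 and 3. In these bulk libraries, fewer cells of a type and less RNA per cell cannot be told apart. Single genes seldom passed the unblocked test: 3 fell (NDUFS4, SDHA and UQCRC2), a share near the 4.96% of all tested genes called lower, and none rose, against 5.37%; 15 of the 86 (17.4%) had an unadjusted p under 0.05, a smaller share than the 23.8% of all tested genes. With the replicate block 57 were lower, against 20% of all tested genes, and 4 were higher (NDUFB1, NDUFA5, ATP5F1E and NDUFA4L2), against 19.7%. Without both replicate 1 libraries 55 were lower (13.8% of all tested genes) and 2 higher (14.6%). The groups did not overlap for 13 members lower in KO-labelled cells (14.7% of all tested genes) and for none that was higher (15.2%). Leaving out the read-through genes and copies left 82 tested genes with the same median and 56 lower and 4 higher with the block.

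**Figure D1:**
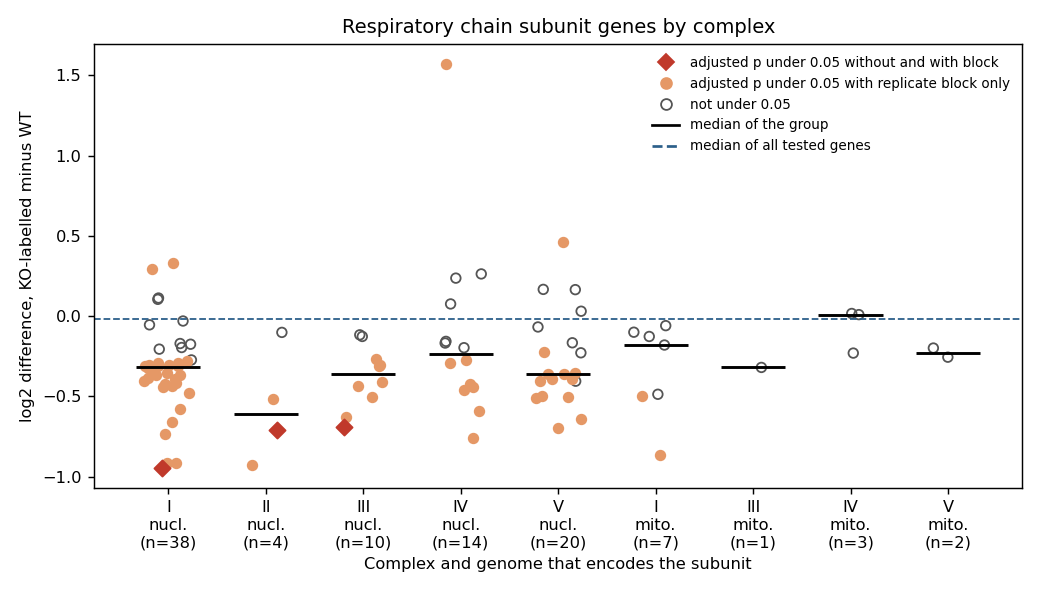
Log2 difference (KO-labelled minus WT) of each tested subunit gene, by complex and by the genome that encodes it. Symbols give the call without and with the replicate block, black bars the median of each group and the dashed line the median of all tested genes (-0.02). The nuclear groups have medians from -0.61 (complex II) to -0.23 (complex IV), and the 3 genes called in both fits are NDUFS4, SDHA and UQCRC2.

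The 38 nuclear genes of complex I had a median log2 difference of -0.32, and 30 were lower at all 3 replicate numbers (78.9%, against 34% of all tested genes). With the block 27 were lower (71.1%, against 20%) and 2 higher (against 19.7%). NDUFS4 encodes an accessory subunit near the NADH-oxidising end of the peripheral arm, and lies at chr5:53560633-53683340 (GRCh38, + strand). Its values were 648, 683 and 652 in KO-labelled libraries and 1064, 1487 and 1300 in WT libraries. The groups did not overlap, and the KO-labelled libraries lay much closer together than the WT libraries. It fell to 661 ± 19.5, against 1284 ± 212 in WT (SD, n = 3 each), a log2 difference of -0.94 (95% interval -1.34 to -0.55, adjusted p = 0.0154; 7.4e-04 with the block). The call was lost without KO-labelled replicate 2 (adjusted p = 0.0582) or 3 (0.0808) and without WT replicate 2 (0.0664) or 3 (0.0809).

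None of the other nuclear subunits of complex I passed the unblocked test. The 7 nuclear core subunits, which belong to the catalytic arm, all had differences below 0, from -0.20 (NDUFS1, adjusted p = 0.664; 0.0627 with the block) to -0.48 (NDUFS7, 0.0685; 0.00345 with the block). NDUFS7, which holds the last iron-sulfur cluster before the quinone, had 1681, 1959 and 1578 in KO-labelled and 2425, 2486 and 2345 in WT libraries, without overlap. NDUFV1, the FMN-binding subunit, differed by -0.39 (0.241; 0.00271 with the block). Among accessory subunits, NDUFS6 differed by -0.91 (0.184; 1.29e-04 with the block) and NDUFA12 by -0.66 (0.239; 5.58e-04 with the block). NDUFB1, of the membrane arm, went the other way, with 1338, 1672 and 1790 in KO-labelled and 996, 1453 and 1397 in WT libraries. These ranges overlap, and its difference of 0.33 passed with the block alone (adjusted p = 0.391; 0.021 with the block).

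Complex II had the lowest median of the nuclear groups (-0.61), and its 4 genes were lower at all 3 replicate numbers (34% of all tested genes were). SDHA, the flavoprotein that oxidises succinate (chr5:218241-256700, + strand), had values of 4742, 5371 and 5722 in KO-labelled and 8071, 9193 and 8558 in WT libraries. The groups stood well apart. SDHA fell to 5278 ± 497, against 8607 ± 562.2 in WT (log2 -0.71, 95% interval -1.004 to -0.41, adjusted p = 0.0152; 3.08e-04 with the block). Its call was lost without KO-labelled replicate 2 (0.0599) or 3 (0.0541) and without WT replicate 2 (0.0708) or 3 (0.0771).

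SDHB, the iron-sulfur subunit (chr1:17018722-17054170, - strand), had 1602, 2331 and 2089 in KO-labelled and 2767, 4511 and 4296 in WT libraries. Every KO-labelled library lay below every WT library, and the log2 difference of -0.93 (95% interval -1.49 to -0.36) just missed the unblocked threshold (adjusted p = 0.055; 1.93e-04 with the block). SDHD, a membrane anchor, had 2585, 4196 and 4019 in KO-labelled and 3890, 5683 and 5764 in WT libraries, where replicate 1 of WT overlaps the KO-labelled range (log2 -0.52, adjusted p = 0.264; 0.0011 with the block). SDHC, the other membrane anchor, had 4778, 6561 and 6364 in KO-labelled and 4822, 7438 and 6868 in WT libraries. Its groups overlapped and its difference of -0.10 passed neither test (adjusted p = 0.83; 0.246 with the block), with a blocked 95% interval of -0.25 to 0.05.

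**Figure D2:**
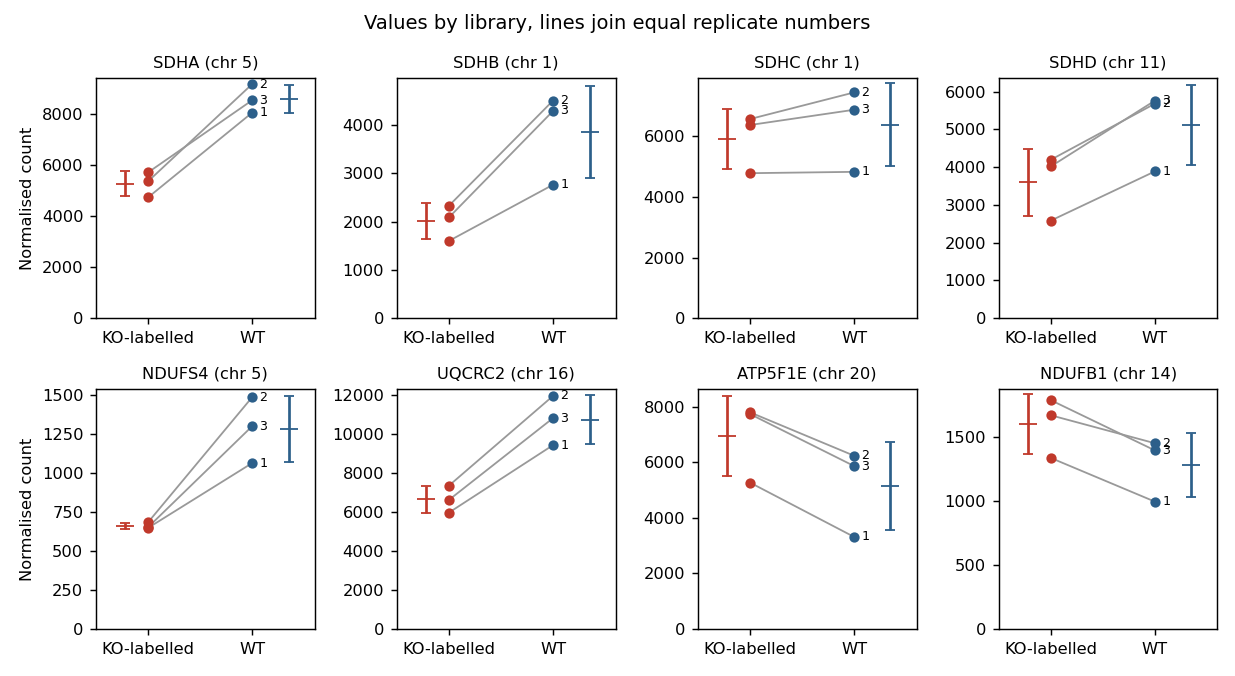
Normalised count of 8 nuclear-encoded subunit genes in each library, with KO-labelled libraries left and WT libraries right in each panel. Lines join libraries of equal replicate number, and bars beside the points give the mean and SD of 3 libraries. SDHA, SDHB, SDHC, SDHD, NDUFS4 and UQCRC2 are lower and ATP5F1E and NDUFB1 higher in the KO-labelled library of every pair. Replicate 1 is the lowest WT library in every panel.

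The 10 nuclear genes of complex III had a median log2 difference of -0.36. Of these, 9 were lower at all 3 replicate numbers (90%, against 34% of all tested genes) and 8 were lower with the block (80%, against 20%). UQCRC2, a core protein of the matrix side (chr16:21952660-21983660, + strand), had 5965, 7348 and 6616 in KO-labelled and 9429, 11953 and 10815 in WT libraries. The groups did not overlap. UQCRC2 fell to 6643 ± 692, against 10732 ± 1264 in WT (log2 -0.69, 95% interval -1.03 to -0.35, adjusted p = 0.0271; 1.81e-04 with the block). Its call was lost without the trend in the variance (0.0589), without KO-labelled replicate 1 (0.0719), 2 (0.0582) or 3 (0.117), and without WT replicate 2 (0.101) or 3 (0.118). Its partner core protein UQCRC1 differed by -0.41 (0.299; 0.00267 with the block). Of the subunits that carry electrons, CYC1 (cytochrome c1) differed by -0.51 (0.248; 0.00113 with the block) and UQCRFS1 (the Rieske iron-sulfur protein) by -0.30 (0.55; 0.0149 with the block). UQCRH, the hinge protein, differed by -0.44 (0.206; 0.00126 with the block). Its near copy UQCRHL, listed at 101.1, 16.9 and 11.8 in KO-labelled and 151, 17.1 and 10.1 in WT libraries, was high in the replicate 1 libraries of both groups.

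Complex IV had the smallest shift of the nuclear groups, with a median of -0.23 over 14 tested genes. With the block 7 were lower (50%, against 20% of all tested genes) and 1 higher (against 19.7%). None was called without it (2 of the 14 had an unadjusted p under 0.05, against 23.8% of all tested genes). COX7C, a small membrane subunit, had 2747, 3765 and 3788 in KO-labelled and 4546, 6672 and 6289 in WT libraries, without overlap (log2 -0.76, adjusted p = 0.0637; 1.91e-04 with the block). COX5B, which faces the matrix, differed by -0.59 (0.12; 6.8e-04 with the block), also without overlap, while COX5A differed by 0.08 (0.864; 0.381 with the block). COX4I1, the largest nuclear subunit of the complex, differed by -0.42 (0.211; 0.00376 with the block).

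Several complex IV subunits have paralogs used in particular tissues or conditions. The ubiquitous forms COX6A1, COX6B1 and COX7B differed by -0.29, -0.46 and -0.44, each past the threshold with the block alone (0.0177, 0.00148 and 0.00243), whereas COX7A2 (-0.16), COX7A2L (-0.17) and COX8A (-0.20) passed neither test (0.0691 to 0.22 with the block). NDUFA4L2, known as a hypoxia-induced paralog of NDUFA4, was low, with values of 164, 51.5 and 57.8 in KO-labelled and 103, 10.9 and 14.8 in WT libraries. It was higher in the KO-labelled library of each number (log2 1.57 ± 0.89, SE; adjusted p = 0.355; 0.0113 with the block), and replicate 1 of WT lies above 2 KO-labelled libraries. NDUFA4 itself differed by 0.26 (0.634; 0.14 with the block). Of the testis-type forms, COX6B2 lay between 5.6 and 35.1 in all libraries. COX7B2 did not pass the filter, with 21, 6.76 and 3.98 in KO-labelled libraries and a listed 0 in all 3 WT libraries. COX4I2, COX6A2, COX7A1 and COX8C were not analysed here. TTN and DES, of the muscle markers, had lower means in KO-labelled cells (1333 and 554) than in WT (15944 and 937). TNNT1, of the same list, went the other way (3443 in KO-labelled cells, 2486 in WT). The part of these markers in the isoform values was not tested.

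The 20 nuclear genes of complex V had a median of -0.36. With the block 12 were lower (60%, against 20% of all tested genes) and 1 was higher (against 19.7%). None was called without it (2 of the 20 had an unadjusted p under 0.05, against 23.8% of all tested genes). The subunits of the catalytic head had differences of both signs. ATP5F1B, the catalytic beta subunit, had 27404, 41075 and 36483 in KO-labelled and 37209, 58015 and 53815 in WT libraries, lower at each replicate number (log2 -0.50, adjusted p = 0.25; 6.48e-04 with the block). ATP5F1C, the gamma subunit of the rotating shaft, had 5739, 7403 and 7254 in KO-labelled and 8506, 12385 and 11037 in WT libraries, without overlap (log2 -0.64, 0.0783; 3.68e-04 with the block). ATP5F1A, the alpha subunit, had 21466, 24651 and 23856 in KO-labelled and 17343, 23081 and 22378 in WT libraries, above WT at each replicate number but not past either test (log2 0.16, 0.586; 0.085 with the block). ATP5F1E, the epsilon subunit, had 5269, 7799 and 7736 in KO-labelled and 3313, 6235 and 5863 in WT libraries, also above WT at each number (log2 0.46, 0.391; 0.00422 with the block).

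Subunits of the peripheral stalk, which holds the head in place, had differences below 0. ATP5PB (subunit b) differed by -0.70 (0.242; 0.00117 with the block) and ATP5PO (the oligomycin sensitivity-conferring protein) by -0.50 (0.149; 6.66e-04 with the block), while ATP5PF (subunit F6) differed by -0.23 (0.783; 0.057 with the block). The c-ring protein is encoded by a family of genes with the same mature product. ATP5MC3 differed by -0.51 (0.49; 0.00176 with the block), ATP5MC1 by -0.39 (0.686; 0.00658 with the block) and ATP5MC2 by -0.17 (0.476; 0.114 with the block). ATP5IF1, the inhibitor of ATP hydrolysis, differed by 0.03 (0.925; 0.73 with the block).

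The 13 mitochondrially encoded genes had a median log2 difference of -0.20, 11 were below 0, and none passed the unblocked test or an unadjusted p of 0.05. Of all tested genes, 51.6% lay below 0 and 23.8% had an unadjusted p under 0.05. With the block MT-ND6 and MT-ND1 were lower (15.4%, against 20% of all tested genes) and none was higher (against 19.7%). The blocked share of lower genes was thus below that of all tested genes. Without both replicate 1 libraries MT-ND6 alone was lower, where 13.8% of all tested genes were. The pair medians were -0.46, -0.11 and -0.01 at numbers 1, 2 and 3, so that the mitochondrial median lay below the nuclear one (-0.25) at number 1 and above it at numbers 2 and 3 (no test compared the 2 sets). KO-labelled lay below WT at all 3 numbers for 7 of the 13 (53.8%, against 34% of all tested genes). The 13 genes took 6.54%, 7.08% and 7.36% of the summed values in KO-labelled and 7.82%, 7.21% and 7.20% in WT libraries. The KO-labelled and WT means were 6.99% ± 0.41 and 7.41% ± 0.35 (SD, n = 3 each), and KO-labelled replicate 3 lay above WT replicates 2 and 3. Without both replicate 1 libraries the difference in means was 0.014 percentage points, against -0.42 with all libraries. The nuclear members took 0.682%, 0.831% and 0.824% in KO-labelled and 0.743%, 1.01% and 0.999% in WT libraries.

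MT-ND6, a complex I subunit and the one protein gene on the light strand of the mitochondrial genome (chrM:14149-14673, - strand), had 14619, 42594 and 44681 in KO-labelled and 34171, 81557 and 60469 in WT libraries. Replicate 1 was far below the others in both groups, and KO-labelled was lower in each pair (log2 -0.87 ± 0.50, SE; adjusted p = 0.368; 0.00254 with the block). MT-ND1, at the quinone site of complex I (chrM:3307-4262), had 135545, 252934 and 240101 in KO-labelled and 215024, 338299 and 319876 in WT libraries, again lower in each pair (log2 -0.50, 0.399; 0.00213 with the block). MT-ND2 had 214065, 307691 and 361130 in KO-labelled and 459347, 391705 and 363813 in WT libraries, and its difference lay mostly in replicate 1 (log2 -0.49, 0.296; 0.0725 with the block). The further membrane-arm subunits MT-ND3, MT-ND4, MT-ND4L and MT-ND5 differed by -0.06, -0.10, -0.18 and -0.13, with blocked p-values from 0.172 to 0.661.

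MT-CYB, the cytochrome b of complex III, had 102700, 175193 and 196813 in KO-labelled and 203222, 197584 and 171419 in WT libraries. Its direction was not the same in all pairs (-0.98, -0.17 and 0.20; adjusted p = 0.547, 0.234 with the block). The 3 catalytic core subunits of complex IV had differences near 0 or below. MT-CO1 had 707505, 805884 and 667714 in KO-labelled and 591107, 837943 and 753875 in WT libraries (log2 0.01, with a blocked 95% interval of -0.22 to 0.24). MT-CO2 differed by 0.02 and MT-CO3 by -0.23 (blocked adjusted p = 0.882 and 0.12); the signs of MT-CO1 and MT-CO2 turn when libraries are centred on their median, to -0.05 and -0.04. MT-ATP6 and MT-ATP8 of complex V differed by -0.20 and -0.26 (0.125 and 0.0768 with the block). MT-ATP8 overlaps MT-ATP6, and MT-ND4L overlaps MT-ND4, so how their shared bases were counted is uncertain. Per kilobase of exon, the KO-labelled and WT means were highest for MT-CO3 (496823 and 583183) and lowest for MT-ND5 (62362 and 68216), where the highest nuclear member, UQCRH, had 20617 and 27996.

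**Figure D3:**
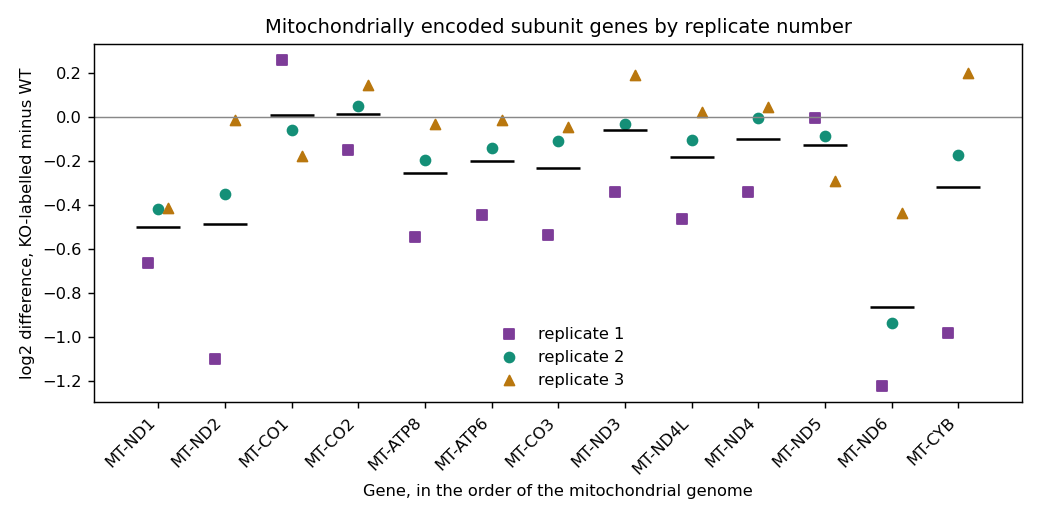
Log2 difference (KO-labelled minus WT) of each mitochondrially encoded subunit gene within each replicate number, with genes in the order of the mitochondrial genome and black bars for the fitted difference. Replicate 1 is the lowest point for 11 of the 13 genes, the exceptions being MT-CO1 and MT-ND5. MT-ND6 is 1 of 7 genes that are lower in all 3 pairs.

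The genes of chromosomes 5, 7 and 20 had medians away from that of all genes. The 693 tested genes of chromosome 5 had a median log2 difference of -0.62, the 834 of chromosome 7 had 0.39 and the 393 of chromosome 20 had 0.54. The 6 members on chromosome 5 (NDUFS4, NDUFS6, NDUFA2, SDHA, UQCRQ and COX7C) had a median of -0.75 and were all lower with the block, as were 67.4% of the chromosome's tested genes, so 2 of the 3 members that fell without it, NDUFS4 and SDHA, lie on a chromosome whose median gene was lower. UQCRC2 on chromosome 16 and SDHB on chromosome 1 do not. The 5 members on chromosome 7 (NDUFA4, NDUFA5, NDUFB2, ATP5MF and ATP5MF-PTCD1) had a median of 0.17, and ATP5F1E on chromosome 20 differed by 0.46. NDUFA5, a peripheral-arm subunit of complex I, alone among the chromosome 7 members passed with the block (0.29; adjusted p = 0.494, 0.0174 with the block). The 74 tested members on the other chromosomes had a median of -0.33. With the block 51 of them were lower (68.9%, against 20% of all tested genes) and 2 higher (against 19.7%). Without it 1 was lower (against 4.96%) and none was higher (against 5.37%). An unadjusted p under 0.05 was found for 13.5% of them, against 23.8% of all tested genes.

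Against the median of the 20 nearest tested genes, 10 on each side, 79 of the 86 nuclear members lay lower, as did 8212 of the 16658 tested genes. The median distance from the neighbours was -0.27 for the nuclear members and -0.00 for all tested genes. The neighbours of the members had a median of -0.05. SDHB lay furthest below its neighbours (-0.86), followed by the read-through gene NDUFC2-KCTD14 (-0.83), ATP5MC3 (-0.74), ATP5PO (-0.63) and UQCRC2 (-0.61). NDUFS4 and SDHA lay closer to theirs (-0.38 and -0.18), and COX7C lay at the level of its neighbours (0.01). On the side of higher members, ATP5F1E lay below its neighbours (-0.14), NDUFB1 lay level with them (-0.01), and NDUFA4L2 lay above (1.43). DNA copy number was not analysed here.

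**Figure D4:**
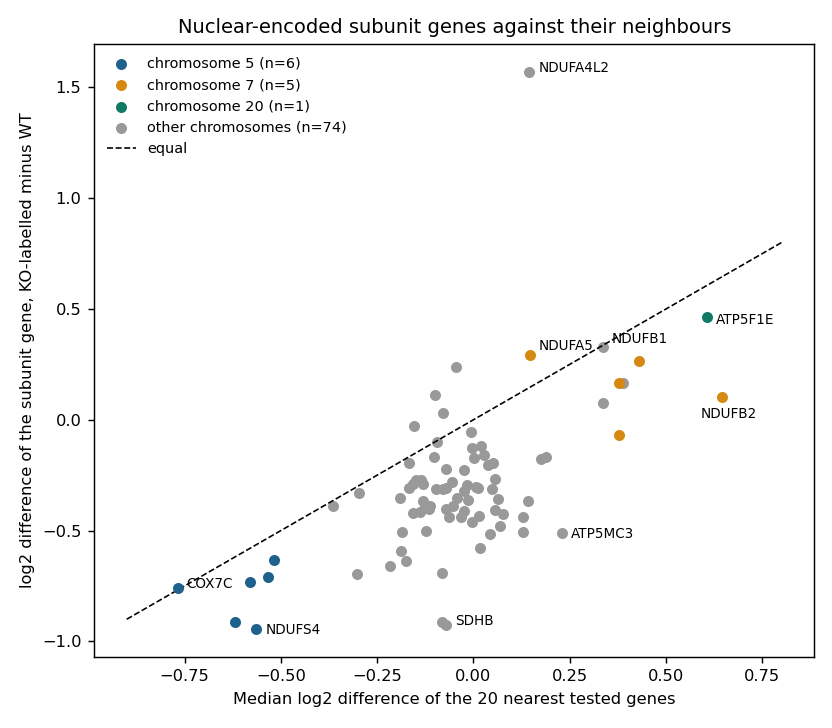
Log2 difference (KO-labelled minus WT) of each tested nuclear-encoded subunit gene (vertical) against the median difference of its 20 nearest tested genes (horizontal), coloured by chromosome. The dashed line marks equal values; 79 of 86 points lie below it. The chromosome 5 members sit at the lower left and those of chromosomes 7 and 20 toward the right.

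The medians of highly expressed or short transcripts lay nearer 0 than that of the nuclear members. Protein-coding genes in the top 20% by mean value had a median of -0.11 over 2552 genes, and those in the shortest 20% by exon length had -0.05 over 2554 genes. Of the top 20%, 67.9% were below 0, 49.8% lower at all 3 replicate numbers and 33% lower with the block. In the same order, the shares were 54.4%, 36.4% and 21% for the shortest 20%, and 51.6%, 34% and 20% for all tested genes. They were 86%, 77.9% and 66.3% for the nuclear members. The part of expression level in their shift was not tested. Members whose promoter holds at least 1 of the 3 motifs had a median of -0.36 (42 tested) and members without one had -0.32 (26 tested).

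**Figure D5:**
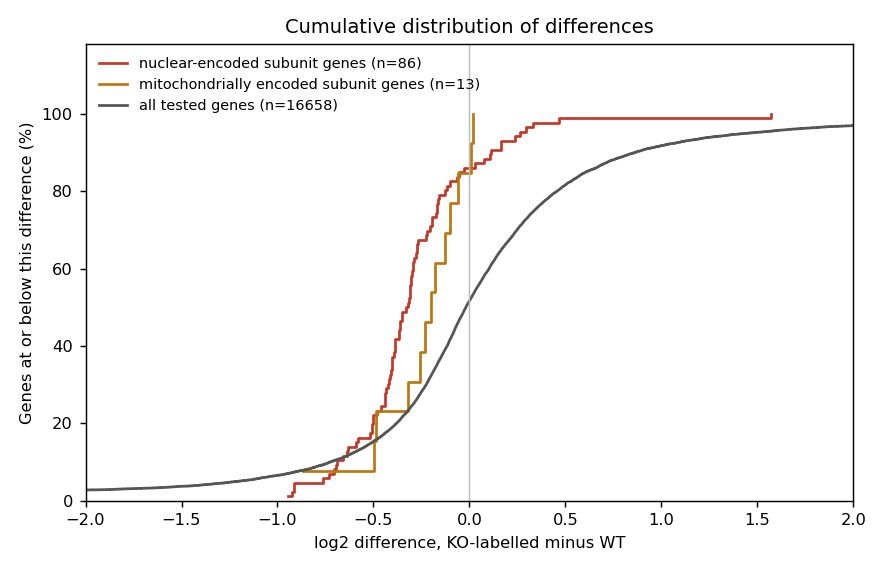
Percent of genes at or below each log2 difference (KO-labelled minus WT) for nuclear-encoded subunit genes, mitochondrially encoded subunit genes and all tested genes; the axis is limited to differences from -2 to 2. The nuclear curve lies left of the curve of all genes around its middle, with medians of -0.33 and -0.02, and the mitochondrial curve lies between (-0.20).

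Genes around the chain were taken from lists of assembly factors, mitochondrial RNA factors and regulators. Their medians ran from -0.16 to -0.01, nearer that of all tested genes (-0.02) than that of the nuclear subunits (-0.33). Of all tested genes, 4.96% were called lower and 5.37% higher without the block, and 20% and 19.7% with it. The 19 complex I assembly factors had a median of -0.05, with 1 lower, and with 5 lower (26.3%) and 2 higher with the block. The lower one, NDUFAF2, a chromosome 5 gene, had 742 ± 167 in KO-labelled cells and 1484 ± 294 in WT (log2 -1.01, adjusted p = 0.0438; 2.87e-04 with the block); its call was lost in 5 of the 6 fits that left out a library, the exception being WT replicate 1, with p up to 0.174. COA1 (0.23) and NDUFAF1 (-0.39) passed with the block alone (0.0303 and 0.0176). The 4 complex II assembly factors had a median of -0.03 and no call in either fit (0 with an unadjusted p under 0.05); SDHAF1 differed by 0.24, SDHAF2 by -0.10 and SDHAF4 by -0.11.

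Among 6 complex III assembly factors, with a median of -0.09, 2 (33.3%) fell in both fits, against 4.96% of all tested genes without the block and 20% with it. LYRM7, which stabilises the Rieske protein before it is inserted and lies on chromosome 5, fell to 3605 ± 546 in KO-labelled cells, against 7685 ± 1286 in WT (log2 -1.09, adjusted p = 0.0125; 4.45e-05 with the block), a call lost without KO-labelled replicate 3 (0.0577), WT replicate 2 (0.0532) or WT replicate 3 (0.0665). TTC19, on chromosome 17, which acts on the Rieske protein after its insertion, fell to 1371 ± 47.7, against 1965 ± 124 in WT (log2 -0.52, 0.0426; 0.00325 with the block), a call lost when any 1 of the 6 libraries was left out (up to 0.148) and with libraries scaled to the same total (0.123). UQCC3 differed by 0.26 (0.598). The 25 tested complex IV assembly factors had a median of -0.07, with 1 lower, and with 3 lower (12%, against 20% of all tested genes) and 2 higher (against 19.7%) with the block. HIGD2A, again on chromosome 5, fell to 1545 ± 71.1, against 2757 ± 78.3 in WT (log2 -0.84, 0.00603; 2.16e-04 with the block), and kept its call in every fit that left out a library. SURF1 (0.39) and COX10 (-0.49) passed with the block alone (0.0311 and 0.00769). Of 4 ATP synthase assembly factors, ATPAF1 was lower (-0.41) and FMC1 higher (0.58) with the block alone (0.00778 and 0.0341), and TMEM242 differed by 0.15.

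The 29 tested genes of mitochondrial DNA transcription and RNA handling had a median of -0.15, with 1 lower and 1 higher (4.96% and 5.37% of all tested genes). With the block 8 were lower (27.6%, against 20% of all tested genes) and 5 higher (against 19.7%). PTCD2, a chromosome 5 gene known in mouse for the processing of mitochondrial RNA, fell to 1206 ± 107 in KO-labelled cells, against 2014 ± 232 in WT (log2 -0.74, 0.0245; 6.71e-04 with the block). MGME1, a mitochondrial DNA nuclease on chromosome 20, rose to 2864 ± 163, against 2022 ± 128 in WT (log2 0.50, 0.045; 0.00192 with the block). Both calls were lost in the fits that left out any library but WT replicate 1 (up to 0.122 and 0.192), and that of MGME1 also under both other scalings (0.0514 and 0.0624), with no filter (0.0536) and without the trend (0.087). FASTKD1 differed by -0.47 (0.11; 0.00403 with the block). The 10 tested nuclear regulators of respiratory genes had a median of -0.16, with none called (2 of the 10 at an unadjusted p under 0.05, against 23.8% of all tested genes). With the block 2 were lower (20%, the same share as of all tested genes) and 1 higher (against 19.7%). PPARGC1B, a coactivator of respiratory genes on chromosome 5, had 876, 1534 and 1306 in KO-labelled and 1910, 3061 and 2871 in WT libraries, without overlap, and just missed the unblocked threshold (log2 -1.09, 0.051; 1.05e-04 with the block). ESRRA, a nuclear receptor that works with this coactivator, differed by -0.42 (0.146; 0.0217 with the block) and YY1 by 0.21 (0.547; 0.0231 with the block). The 18 genes of electron carriers and coenzyme Q synthesis had a median of -0.01 with none called (0 at an unadjusted p under 0.05). With the block 4 were lower (22.2%, against 20% of all tested genes) and 1 higher (against 19.7%). Beside CYC1, COQ2 differed by 0.35 (0.392; 0.0623 with the block) and ETFA by 0.21 (0.438; 0.0453 with the block).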

How the data were processed

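Polyadenylated RNA of 6 K562 samples was sequenced, 3 per group. The values deposited by the authors are a signal: normalised counts per gene, on a linear scale and with decimals. Per the submitters' processing notes, the tools were STAR 2.7.2b, Salmon 1.1.0, SAMtools, FastQC 0.11.7, and DESeq2 1.26.0 in R 3.6.1, with GRCh38; the counting settings and annotation release were not given in the sources used here. Whole reads were not recovered: in each library 13.6% to 30.2% of the values under 10 lay within 0.01 of a whole multiple of a common step, so depth is unknown and precision rests on the spread between libraries. Symbols came from a name table (19392 of 19498 identifiers) and positions and biotypes from GENCODE 29 (19112, of which 13771 are protein-coding); 23 matching pseudogenes or other noncoding genes were left out.

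The 16658 genes that reached 10 in 3 or more of the 6 libraries were fitted on the log2(value + 1) scale by limma 3.58.1 (R 4.3.3, intensity trend on), and p-values were adjusted by Benjamini-Hochberg over all tested genes, with 0.05 as threshold, and the code was tested on simulated data. Deviations of libraries from their group means correlated across genes between equal replicate numbers (0.699, 0.521 and 0.342), each over the limit of 0.1, so a second fit had the replicate number as a block; unlike numbers 2 and 3 also gave 0.281 and 0.257, and the meaning of the numbers is not in the labels. A fitted difference on this scale understates the change of low genes. Neighbour medians take 10 tested genes on each side. Lists were described by counts and medians alone, and no set test was run. Named genes are the mitochondrial genes, members called without the block, members with tissue isoforms, members on chromosomes 5, 7 and 20, and the 3 genes of smallest p of each list; other members named for their role, their overlap or a blocked call were chosen after their values were seen. Members and lists were chosen with earlier results of these data known. Alternatives were another pseudocount, other filters, other scalings, the block, no trend, and leaving out libraries.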

Additional observations from a re-analysis of the deposited data

How the results depend on the processing

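With the replicate block, calls over all genes came to 6612 (1721 without it), nuclear subunits to 57 lower and 4 higher, and mitochondrial subunits to 2 lower. Without both replicate 1 libraries these were 4731, 55 lower and 2 higher, and 1 lower, and the difference in the mitochondrial share of a library was 0.014 percentage points, against -0.42 with all libraries. With no filter on low values 1 nuclear gene, COX7B2, was called higher. With every library scaled to the same total, 6 nuclear genes were lower and the nuclear median was -0.23, where the median of all genes was 0.08. Leaving out 1 library at a time gave 726 to 2183 calls over all genes, 0 to 12 nuclear genes lower (12 without WT replicate 1, 2 without KO-labelled replicate 1, 0 without any other library), 0 to 1 higher, a nuclear median of -0.54 to -0.17 and a mitochondrial median of -0.27 to -0.045, and a mitochondrial share difference of -0.60 to -0.19 points. The counts, medians and shares kept their side under a pseudocount of 5, a minimum of 50, no trend and median centring. Of the named genes called in the unblocked fit, 4 lost their call without the trend and 2 with no filter. With the same total per library 2 lost it, and with median centring 1. Not all of these losses are printed beside the genes above. The block changed no other call of the results above than those counted or printed there.

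Directions of small differences turned in some settings, and none of these genes was called in the unblocked fit. With the same total per library SDHAF2 came to 0.0043, MT-ND3 to 0.041 and ATP5MF to 0.032. With median centring MT-CO2 came to -0.041 and MT-CO1 to -0.048. Without both replicate 1 libraries NDUFB2 came to -0.031, SDHAF4 to 0.0028, MT-CYB to 0.013, MT-CO1 to -0.12, MT-ND3 to 0.081, MT-ND4 to 0.021 and ATP5MF-PTCD1 to -0.013, while MT-CO2 kept its sign at 0.099. Over the fits that left out 1 library, ATP5MC1 ranged from -0.80 to 0.023, ATP5MF from -0.38 to 0.22, ATP5MF-PTCD1 from -0.13 to 0.34, COX6B2 from -0.50 to 0.89, COX7A2L from -0.39 to 0.035, MT-CO1 from -0.13 to 0.12, MT-CO2 from -0.034 to 0.081, MT-ND3 from -0.19 to 0.16, MT-ND4 from -0.17 to 0.013, NDUFA4 from -0.046 to 0.44, NDUFB2 from -0.38 to 0.45, SDHAF2 from -0.47 to 0.13 and SDHAF4 from -0.44 to 0.32. The cause of these changes was not tested.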

Other observations

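The proteins of the mitochondrial ribosome, which translates the 13 mitochondrial messages, are nuclear genes outside the subunit families. They numbered 78, with a median log2 difference of -0.20, 3 lower and 1 higher in the unblocked fit (4.96% and 5.37% of all tested genes). With the replicate block 32 were lower (41%, against 20% of all tested genes) and 4 higher (against 19.7%). Of the 78, 64 lay below the median of their 20 nearest tested genes, as did 8212 of the 16658 tested genes.

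The 2 ribosomal RNAs of the mitochondrial genome, measured in a poly(A)-selected library, had differences below 0, as did 11 of the 13 protein genes. MT-RNR2 had 893185, 943217 and 1059160 in KO-labelled and 1193310, 1194050 and 1286260 in WT libraries, without overlap (log2 -0.35, adjusted p = 0.399; 0.00921 with the block). MT-RNR1 differed by -0.42 (0.524; 0.00686 with the block). DMAC2L, which matched the families by its older name ATP5S alone and was left out, had 1500, 1407 and 1180 in KO-labelled and 1457, 1287 and 1233 in WT libraries.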
